A study of Mus musculus with 58 samples.

Results

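The 9 genes described here are targets of the tumour suppressor p53 that promote apoptosis, and they were followed through lung, liver and forestomach of mice exposed to indeno(123,cd)pyrene (IP), a polycyclic aromatic hydrocarbon of combustion soot. They were chosen by name as pro-apoptotic p53 targets, with earlier results of these data known: Bax, Bbc3, Pmaip1, Phlda3, Aen, Perp, Eda2r, Zmat3 and Trp53inp1. Matching the transcript accession of each probe to RefSeq found all 9, on 12 of the 55681 probes of the array, of which 26413 could be named, for 20018 genes. Aen, Eda2r and Trp53inp1 each had a second probe, and every gene is represented by its brighter probe unless the second is named.

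The mice were male Muta™Mouse, a transgenic strain that carries a bacterial lacZ reporter for scoring mutations in every tissue, and were about 13 weeks old. Every mouse, the vehicle group included, received daily olive oil by gavage for 28 days, alone or with IP dissolved in it at 12.5, 25 or 50 mg/kg-bw/day, and tissues were taken 72 h after the last dose. RNA came from random sections of each tissue, was labelled with Cy5 and shared an array with a Cy3-labelled reference RNA pooled from 11 mouse cell lines. Lung gave 20 arrays with 5 mice in each group, and liver and forestomach gave 19 arrays each, 4 of them vehicle and 5 from every dose group. The labels number 5 vehicle mice in lung, of which mouse 4 has no liver or forestomach array in the set used here, while the methods give 4 vehicle mice, and all 5 were kept.

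p53 is a transcription factor that damaged DNA stabilises. Reactive diol epoxides formed from polycyclic aromatic hydrocarbons by cytochrome P450 enzymes bind DNA and are one source of such damage. Among its targets, some hold the cell cycle while repair goes on, and others lower the barrier to apoptosis. The second kind includes proteins that open the outer mitochondrial membrane (Bax) or release that step from its inhibitors (Bbc3, also called PUMA, and Pmaip1, also called NOXA). Others curb survival signalling, digest nucleic acids, act at the cell membrane or reinforce p53 itself.

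The measure throughout is the log2 ratio of Cy5 over Cy3, called the log2 ratio to the reference, so that 0 is the level in the reference RNA and a difference of 1 is a doubling. A probe was called changed at a dose where the fold change reached 1.5 and limma's adjusted p did not exceed 0.05. Between 53.0 and 90.7% of probes were well above background on the lung arrays, 37.6 to 78.9% on the liver arrays and 43.0 to 85.9% on the forestomach arrays. The lung and forestomach samples shared slides 1 to 5, each of which held 1 lung array of every group, and the 4 lung arrays of slide 3 stood apart at 83.8 to 90.7%. All liver arrays lay on slides 6 to 8, so that liver and slide cannot be told apart in comparisons with the other tissues. The dose groups of liver were not spread evenly over these slides. Apart from 2 liver arrays the dose followed the array's column on the slide, so that dose and column cannot be told apart. Labelled tissues carried their markers: the mean log2 ratio of 8 lung epithelium genes was 5.81 to 6.70 in lung, that of 8 hepatocyte genes 7.42 to 8.52 in liver and that of 10 keratinized epithelium genes at least 3.78 in forestomach. In forestomach, however, 10 of the 19 arrays also carried glandular stomach markers, as given below.

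Of the 9 genes, 7 were well above background on all 58 arrays: Bax, Bbc3, Phlda3, Aen, Perp, Zmat3 and Trp53inp1. Pmaip1 was above background on 32 arrays, among them all 20 lung arrays. Eda2r, which encodes a receptor of the tumour necrosis factor family for an ectodysplasin isoform, was above background on only 6 of 58 arrays, and its second probe on 3, so that most of its values only bound its level.

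In vehicle mice the tissues differed in the levels of these genes. Perp, a membrane protein of desmosomes that p53 also induces, was highest in forestomach, with log2 ratios of 6.37, 5.71, 5.55 and 5.78 in the 4 vehicle mice, against 2.12 to 2.50 in liver and −0.33 to 0.30 in lung. The 3 tissues did not overlap. Vehicle forestomach was 12.0-fold above vehicle liver (adjusted p = 7.01e-21 in the joint limma fit) and 60.8-fold above vehicle lung (adjusted p = 9.87e-31), and lung lay 5.07-fold below liver (adjusted p = 7.73e-15).

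Phlda3, a pleckstrin-homology protein that competes with AKT for membrane lipids, followed another order. Vehicle forestomach had 1.41, 0.70, 0.76 and 0.75, vehicle lung 0.03 to 0.29 and vehicle liver −2.52 to −2.26, again without overlap. Lung was 6.02-fold above liver (adjusted p = 6.89e-21) and forestomach 10.1-fold above liver (adjusted p = 2.04e-24). Forestomach lay 1.68-fold above lung (adjusted p = 7.31e-05), and without forestomach vehicle mouse 1, the highest, the log2 difference of lung minus forestomach was −0.58, just under the fold limit. That mouse was the 1 vehicle mouse whose forestomach array did not carry the glandular stomach markers described below, with a score of 0.57 against 6.70 to 6.79 in the other 3, and Phlda3 was lower where that score was higher (−0.10 per unit).

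Bbc3, whose BH3-only protein antagonises BCL2, BCL-XL and MCL1, and Trp53inp1, a nuclear protein that enhances p53 activity in stressed cells, were lowest in forestomach. Bbc3 gave −2.26 to −1.68 in vehicle forestomach against 0.11 to 0.75 in lung and −0.34 to 0.57 in liver, so that lung was 5.05-fold (adjusted p = 4.05e-17) and liver 4.63-fold (adjusted p = 1.02e-15) above forestomach. Trp53inp1 gave −1.18 to −0.55 in forestomach against 0.77 to 1.11 in lung and 0.57 to 1.24 in liver, with lung 3.30-fold (adjusted p = 5.69e-15) and liver 2.99-fold (adjusted p = 3.48e-13) above it. The mean log2 difference between lung and liver was not called for Bbc3 (0.12, 95% interval −0.21 to 0.46) or for the brighter probe of Trp53inp1 (0.14, −0.14 to 0.42). The second probe of Trp53inp1 put lung below liver, by 0.72 on the log2 scale (adjusted p = 0.000753), so the order of those tissues depends on the probe. Forestomach was lowest on that probe too. There the log2 difference was 0.64 for lung minus forestomach (adjusted p = 0.00357), against 1.72 on the brighter probe. For forestomach minus liver it was −1.37 (adjusted p = 2.63e-08), against −1.58.

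Zmat3, a zinc finger protein that binds AU-rich RNA, was highest in forestomach, at −0.14 to 0.09, against −1.16 to −0.61 in lung and −1.34 to −1.09 in liver. The log2 difference was −0.96 for lung minus forestomach (adjusted p = 1.66e-05) and 1.21 for forestomach minus liver (adjusted p = 3.87e-07), while lung and liver overlapped and differed by 0.25 (adjusted p = 0.302). Pmaip1, another BH3-only protein, which binds MCL1, was above background on all 5 vehicle lung arrays and on none of the 4 vehicle liver arrays. Its level in lung was at least 3.78-fold that in liver, the liver side taken per array as the higher of its own Cy5 signal and the lowest signal of any probe above background. That bound was not tested. The difference in log2 ratio between the 2 tissues, tested in the joint limma fit, had an adjusted p of 2.03e-05. Fewer cells of a type and less RNA per cell cannot be told apart in whole tissue. For Bax the tissues could not be separated, with log2 ratios of −1.15 to −0.66 in vehicle lung, −1.12 to −0.86 in vehicle liver and −1.19 to −0.46 in vehicle forestomach, although median centring of each array in place of the loess step put lung 1.03 above liver and 0.53 above forestomach on the log2 scale. Aen, an exonuclease of the nucleus and nucleolus, was lowest in liver, −1.08 ± 0.21 (SD, n = 4). On the brighter probe its differences from liver, 0.37 in lung (adjusted p = 0.0215) and 0.58 in forestomach (adjusted p = 0.000581), stayed under the fold limit. The second probe of Aen gave 0.40 in lung (adjusted p = 0.0128), also under it. In forestomach that probe gave 0.68 (adjusted p = 7.20e-05), past both limits, so the call of Aen there depends on the probe.

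In vehicle mice 3 of the 9 genes were called between lung and liver, where 26.9% of all probes were called, 6 between lung and forestomach, where the share was 19.5%, and 5 between forestomach and liver, where it was 22.7%. These were Pmaip1, Phlda3 and Perp between lung and liver, these 3 with Bbc3, Zmat3 and Trp53inp1 between lung and forestomach, and Bbc3, Phlda3, Perp, Zmat3 and Trp53inp1 between forestomach and liver. Of these tissue differences, those of Perp, Pmaip1 and Phlda3 between lung and liver and those of Perp, Bbc3, Pmaip1 and Trp53inp1 between lung and forestomach were also called under median centring of each array without loess, whereas those of Phlda3 and Zmat3 between lung and forestomach were not. The call of Pmaip1 between lung and forestomach was lost without forestomach mouse 1, where the log2 difference was 1.15 (adjusted p = 0.0669). The 3 vehicle mice that remain there are those with glandular stomach markers, on whose arrays Pmaip1 was above background.

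**Figure D1:**
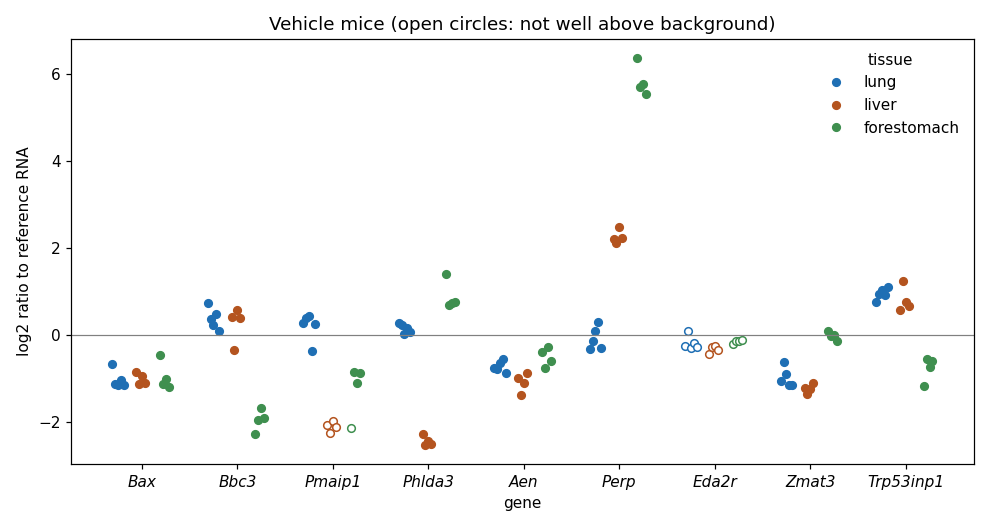
Log2 ratio to the reference RNA (vertical axis) of the 9 genes (horizontal axis) in each vehicle mouse, 5 in lung (blue), 4 in liver (brown) and 4 in forestomach (green), with open circles for values not well above background. Perp spans from about the reference level in lung to 5.55 and above in forestomach, while Bax lies at nearly the same level in the 3 tissues.

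Bax acts at the mitochondrion: once activated, its protein forms pores in the outer membrane and lets cytochrome c out. The 5 vehicle lungs had log2 ratios of −0.66, −1.12, −1.15, −1.14 and −1.04 in mice 1 to 5. At 12.5 mg/kg-bw/day mice 6 to 10 had −0.43, −0.57, −0.74, −0.61 and −0.81, and at 25 mg/kg-bw/day mice 11 to 15 had −0.32, −0.48, −0.55, −0.46 and −0.37. The 5 lungs at 50 mg/kg-bw/day, mice 16 to 20, had 0.03, −0.29, −0.42, −0.14 and −0.32. The group means were higher with each dose, from −1.02 ± 0.21 through −0.63 ± 0.15 and −0.44 ± 0.09 to −0.23 ± 0.18 (SD, n = 5 each), and at the 2 higher doses no exposed mouse overlapped with the vehicle mice. Vehicle mouse 1 was the highest vehicle mouse, and it alone overlapped with the 12.5 mg/kg-bw/day group.

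The difference from vehicle was 0.39 (SE 0.10) on the log2 scale at 12.5 mg/kg-bw/day, 0.59 (SE 0.10) at 25 and 0.79 (SE 0.10, 95% interval 0.59 to 1.00) at 50, the last a 1.73-fold higher level. Bax was called at 50 mg/kg-bw/day (adjusted p = 0.00148) and at 25 mg/kg-bw/day (adjusted p = 0.0381), where its log2 difference lay only just past the limit of 0.58. At 12.5 mg/kg-bw/day the adjusted p was 0.895, although 5 of 5 mice lay above the vehicle mean. The exact permutation test, whose smallest possible p here is 0.00794, gave 0.0238 at the lowest dose and 0.00794 at each of the 2 higher doses. Over all 20 lungs Bax rose by 0.75 (SE 0.11) per 50 mg/kg-bw/day (adjusted p = 0.00367). The call at 25 mg/kg-bw/day was lost without any 1 of 15 of the 20 lung mice, with an adjusted p between 0.0511 and 0.147, and held only without mouse 1, 8, 10, 16 or 20, while the call at 50 mg/kg-bw/day held without each mouse in turn. That call was lost under median centring (1.01, adjusted p = 0.394) and with the scanner's own log ratio (0.66, adjusted p = 0.0742), both of which kept the direction.

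The promoter of Bax is shown because it is the member that was called. Its RefSeq window (GRCm38.p6, chr7:45466899-45467148, minus strand, the 250 bases before the start, read 5′ to 3′) holds 1 match, in capitals, to the 10-base p53 half-site consensus, at position −201 from the start. Such a match is found in 7.84% of 32851 RefSeq windows that run from up to 250 bases before to up to 30 bases after a start, both strands being searched.
Bax: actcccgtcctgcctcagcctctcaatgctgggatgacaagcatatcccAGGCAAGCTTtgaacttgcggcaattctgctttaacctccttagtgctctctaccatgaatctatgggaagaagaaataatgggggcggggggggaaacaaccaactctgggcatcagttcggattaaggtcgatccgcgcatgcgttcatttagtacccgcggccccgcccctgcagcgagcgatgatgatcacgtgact

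Phlda3 was the other gene whose slope over dose was called in lung. Vehicle mice 1 to 5 had 0.29, 0.23, 0.03, 0.08 and 0.16, and mice 6 to 10 at 12.5 mg/kg-bw/day had 0.56, 0.51, −0.03, 0.18 and 0.16. Mice 11 to 15 at 25 mg/kg-bw/day had 0.46, 0.77, 0.65, 0.52 and 0.83, and mice 16 to 20 at 50 mg/kg-bw/day had 0.75, 0.91, 0.51, 0.67 and 0.73. The lowest dose overlapped with vehicle and the 2 higher doses lay wholly above it. The differences were 0.12 (SE 0.11, adjusted p = 1), 0.49 (SE 0.11, adjusted p = 0.120) and 0.56 (SE 0.11, adjusted p = 0.0295). The fold change at 50 mg/kg-bw/day was 1.47, under the limit of 1.5, so Phlda3 was not called there. Its slope over dose was called, at 0.59 (SE 0.11) per 50 mg/kg-bw/day (adjusted p = 0.0275), and lost without vehicle mouse 2, 3, 4 or 5 or mouse 17 (adjusted p 0.0523 to 0.0810). Without vehicle mouse 1 or mouse 18 the difference at 50 mg/kg-bw/day passed both limits, at 0.59 (adjusted p = 0.0294) and 0.61 (adjusted p = 0.0413).

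Aen ranked next. Its 5 vehicle lungs lay between −0.87 and −0.55, and the lungs of the 3 doses had means of −0.47 ± 0.20, −0.46 ± 0.07 and −0.32 ± 0.15 (SD, n = 5 each) against −0.71 ± 0.12 (SD, n = 5). At 50 mg/kg-bw/day mice 16 to 20 had −0.37, −0.13, −0.26, −0.32 and −0.53, all above the highest vehicle mouse, by 0.02 at the nearest. The difference there was 0.39 (SE 0.09, adjusted p = 0.0851), and the second probe gave 0.37 (SE 0.09) with an overlap between the groups. Aen was thus not called at any dose. With the slide as a block its adjusted p at 50 mg/kg-bw/day was 0.0124, still under the fold limit.

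The first RefSeq window of Aen (GRCm38.p6, chr7:78895677-78895956, plus strand, 280 bases) is shown with that of Bbc3, a gene that was not called in lung, for comparison with Bax. In Aen the half-site match begins 10 bases past the start. It overlaps a pair of the 4-base cores of that site with 6 bases between them, as adjoining half-sites would place them. The core searched for was CATG, but the variants CAAG with its reverse complement CTTG, as well as CTAG, counted too. The whole stretch of both matches is in capitals. The first of the 3 Bbc3 windows (chr7:16309333-16309582, plus strand, 250 bases before the start) holds no half-site match but 1 such pair of cores, in capitals, at position −94. Neither kind of match was found in the other 2 windows of Bbc3. A core pair is found in 6.75% of all windows, and the window of Bax holds none. No match was found in the windows of Phlda3 and Eda2r, which says only that those letters are not within them. Windows were read for 5 of the 9 genes, and not for Perp, Zmat3, Trp53inp1 and Pmaip1.
Aen: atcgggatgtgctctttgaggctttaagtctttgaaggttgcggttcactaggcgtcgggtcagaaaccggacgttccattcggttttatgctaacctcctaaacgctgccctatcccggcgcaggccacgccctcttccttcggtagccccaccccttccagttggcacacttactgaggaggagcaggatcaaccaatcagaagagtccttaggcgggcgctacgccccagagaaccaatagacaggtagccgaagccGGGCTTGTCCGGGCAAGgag
Bbc3: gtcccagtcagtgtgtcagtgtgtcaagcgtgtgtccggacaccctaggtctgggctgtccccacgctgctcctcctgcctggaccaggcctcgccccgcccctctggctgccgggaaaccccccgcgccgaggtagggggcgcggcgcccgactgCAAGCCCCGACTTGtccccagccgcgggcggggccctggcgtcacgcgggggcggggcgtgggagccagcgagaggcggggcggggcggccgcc

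Zmat3 and Perp had differences of opposite sign in lung, and neither passed the test. Zmat3 had vehicle values of −1.05, −0.61, −0.90, −1.15 and −1.16 in mice 1 to 5 and −0.64, −0.42, −0.59, −0.89 and −0.86 in mice 16 to 20, which overlap, with a difference of 0.30 (SE 0.12, adjusted p = 0.425). Perp had −0.33, −0.13, 0.10, −0.29 and 0.30 in the vehicle mice and −0.32, −0.32, −0.41, −0.41 and −0.45 at 50 mg/kg-bw/day, a difference of −0.31 (SE 0.12, adjusted p = 0.409). The vehicle lungs were spread widely in Perp and the 5 lungs of the highest dose narrowly, with SDs of 0.27 and 0.06.

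The BH3-only genes were not called at any dose. Bbc3 had lung means of 0.39 ± 0.25, 0.44 ± 0.13, 0.36 ± 0.10 and 0.36 ± 0.15 (SD, n = 5 each) from vehicle to the highest dose, and its difference at 50 mg/kg-bw/day was −0.03 with a 95% interval from −0.25 to 0.18. Pmaip1 had means of 0.20 ± 0.33, −0.01 ± 0.05, 0.44 ± 0.20 and 0.20 ± 0.30 (SD, n = 5 each), with a difference of −0.01 (95% interval −0.31 to 0.29) at the highest dose. Both intervals leave out the value of Bax. Trp53inp1 had means from 0.95 to 1.09, with a difference of 0.08 (95% interval −0.11 to 0.27) at 50 mg/kg-bw/day. Eda2r gave 0.20 (SE 0.10, adjusted p = 0.571) on its brighter probe and 0.08 on the second, but only 1 of 20 lung arrays was above background, and no fold is given.

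**Figure D2:**
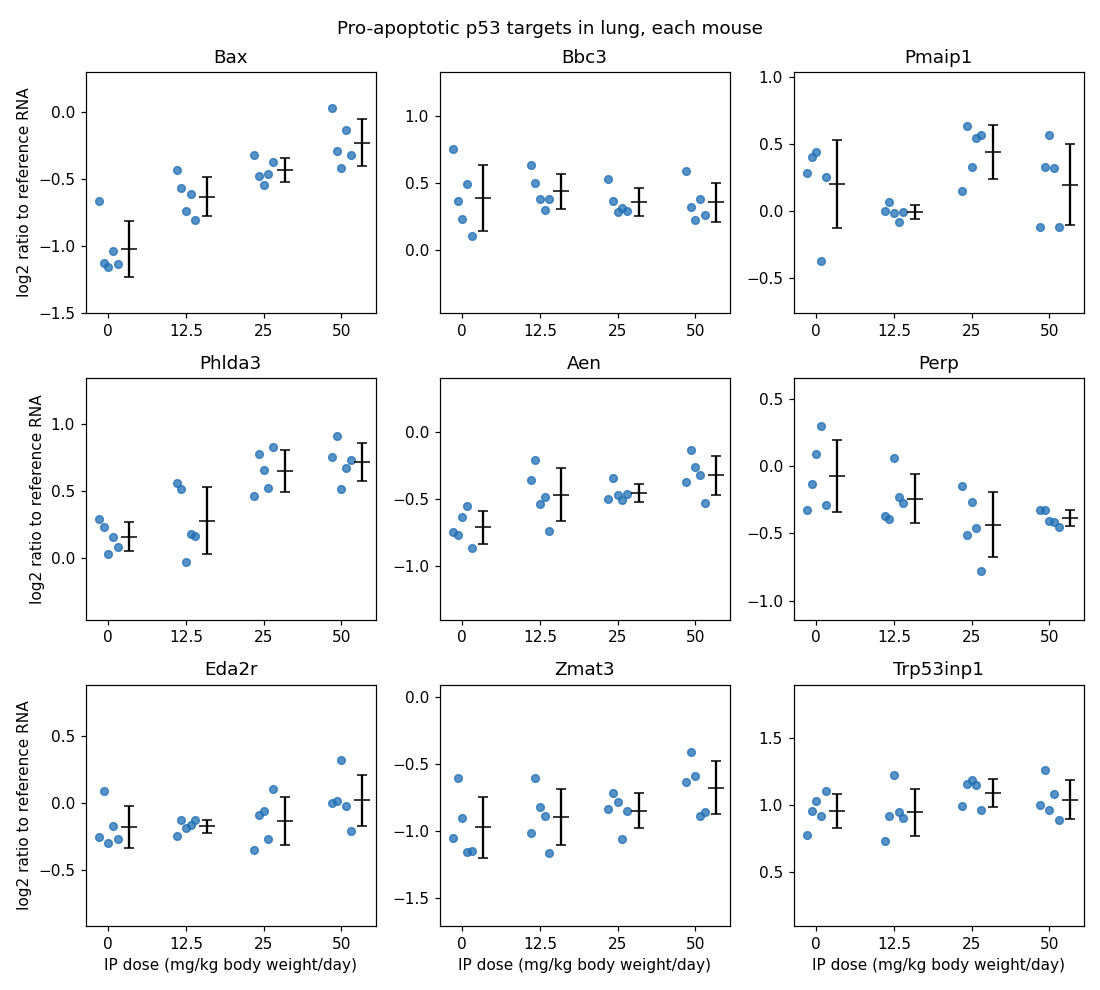
Log2 ratio to the reference RNA in lung (vertical axis, 1 panel per gene, every panel spanning the same number of log2 units) against the IP dose in mg/kg-bw/day (horizontal axis, evenly spaced). Each point is a mouse, 5 per dose, with the mean and SD as a bar to the right. Bax is higher at each dose, Phlda3 and Aen lie above vehicle at 25 and 50 mg/kg-bw/day, and Bbc3, Pmaip1 and Trp53inp1 show no such shift.

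Over the 9 genes, 0 were called in lung at 12.5 mg/kg-bw/day, 1 at 25 and 1 at 50, Bax both times, where 0%, 0.0126% and 0.079% of all probes were called. At an unadjusted p under 0.05 the counts were 2, 4 and 5, where 3.92%, 6.53% and 8.8% of probes passed. The 5 at the highest dose were Bax, Phlda3, Aen and Zmat3, higher, and Perp, lower. No member had all exposed mice above all vehicle mice at 12.5 mg/kg-bw/day, where 0.42% of probes did, and 3 did at each of the higher doses, the background being 0.949% and 1.26%. Those 3 were Bax, Phlda3 and Aen at both doses. For Aen this held only on the brighter probe, since the second probe overlapped with vehicle at both doses. The slope over dose was called for 2 members, Bax and Phlda3, and for 0.14% of all probes. The median log2 difference of the 9 genes was 0.05, 0.13 and 0.20 from the lowest to the highest dose, with medians of 0.00 over all probes. Of the 9, 6 were higher and 3 lower than vehicle at the highest dose.

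Because every slide held 1 lung array of each group, each dose could also be compared with the vehicle array on its own slide. Bax at 50 mg/kg-bw/day was 0.69 to 0.90 above that array on 5 of 5 slides, Phlda3 0.46 to 0.67, Aen 0.23 to 0.63 and Zmat3 0.19 to 0.41, each on 5 of 5. Bax was also higher on 5 of 5 slides at 12.5 mg/kg-bw/day, by 0.23 to 0.56, whereas Phlda3 ranged from −0.06 to 0.28 there. With the slide as a fixed block Bax had an adjusted p of 4.57e-06 at 50 mg/kg-bw/day, and the slope over dose was called for 4 genes in place of 2, Aen and Zmat3 being added. Over all 55681 probes the called slopes rose as well, to 715 with the block from 78 without it. Without the 4 lung arrays of slide 3 the Bax difference was 0.81 at the highest dose (adjusted p = 0.00900), and Bax was no longer called at 25 mg/kg-bw/day (0.58, adjusted p = 0.132).

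**Figure D3:**
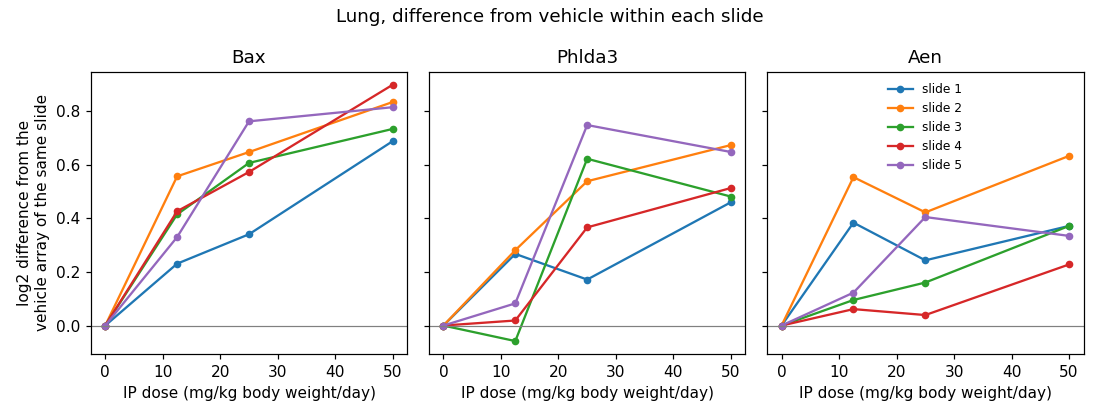
Difference in log2 ratio from the vehicle array of the same slide (vertical axis) against IP dose in mg/kg-bw/day (horizontal axis), 1 line per slide, for Bax, Phlda3 and Aen in lung. All 5 lines of Bax end between 0.69 and 0.90, and those of Phlda3 and Aen end between 0.46 and 0.67 and between 0.23 and 0.63.

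Marker scores of other cells differed between the lung groups without following the dose. The mean log2 ratio of 7 leukocyte genes had medians of 0.96, 1.38, 1.24 and 1.23 from vehicle to the highest dose, with 0.63 to 1.26 in vehicle lungs and up to 1.35 at 50 mg/kg-bw/day. That of 6 skeletal and heart muscle genes had medians of 2.61, 1.91, 1.64 and 2.16, with 1.73 to 3.56 in vehicle lungs and 0.51 to 2.38 at 50 mg/kg-bw/day. None of the 7 and none of the 6 was called at any dose. With the leukocyte score in the fit the Bax difference at the highest dose was 0.73 (adjusted p = 0.00713), that of Phlda3 was 0.54 (adjusted p = 0.0802) and only the slope of Bax was called. With the muscle score it was 0.79 for Bax (adjusted p = 0.00615) and 0.61 for Phlda3 (adjusted p = 0.0362), which then passed both limits. Bax was called at 25 mg/kg-bw/day under neither.

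In liver none of the 9 genes was called at 12.5, 25 or 50 mg/kg-bw/day, nor was any probe of the array (0%, 0% and 0%), and 0, 1 and 2 members passed an unadjusted p under 0.05, where 2.6%, 4.44% and 6.87% of probes did. No slope was called, for the members or for any probe (0%), by limma. With the slide as a fixed block, no probe was called in liver either, at any dose or for the slope. Bax in vehicle livers was −0.86, −1.12, −0.93 and −1.10 in mice 1, 2, 3 and 5, and at 50 mg/kg-bw/day −0.85, −1.67, −1.32, −1.23 and −1.11 in mice 16 to 20. The groups overlapped, and the difference was −0.23 (SE 0.15, 95% interval −0.54 to 0.08). Phlda3 kept to a narrow band, with group means between −2.52 and −2.43 and a difference of −0.08 (95% interval −0.25 to 0.09) at the highest dose.

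The 2 members past the unadjusted limit at 50 mg/kg-bw/day in liver were Trp53inp1 and Pmaip1, both lower than vehicle. Trp53inp1 had 0.57, 1.24, 0.77 and 0.68 in the vehicle mice and 0.29, 0.56, 0.76, 0.49 and 0.37 in mice 16 to 20, which overlap, with a difference of −0.32 (SE 0.15, adjusted p = 0.720). Its second probe gave −0.70 (SE 0.25, adjusted p = 0.713) with no overlap between the groups. The share of all probes without overlap was not counted in liver. Pmaip1 was above background on 2 of 19 liver arrays, so its difference of −0.53 has no level behind it. Under median centring without loess both differences turned positive, at 0.27 and 0.20, as did that of Phlda3, at 0.49.

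Of the liver arrays, 5 stood apart with 66.6 to 78.9% of probes above background, against 37.6 to 45.0% on the other 14, and none of them was a vehicle array. They were mice 9 (12.5 mg/kg-bw/day), 13 and 15 (25) and 16 and 20 (50). Mice 9, 15, 16 and 20 held the 4 lowest values of Pmaip1 in liver, from −3.42 to −3.02, and of Zmat3, from −2.25 to −1.88. Without these 5 arrays the 50 mg/kg-bw/day difference of Pmaip1 was −0.13 (adjusted p = 0.717) in place of −0.53, that of Zmat3 0.02 in place of −0.30 and that of Bax −0.40 (adjusted p = 0.459) in place of −0.23, and no member was called at any dose. The second probe of Trp53inp1 read −0.52 to 0.36 on these 5 arrays and 0.05 to 1.05 on the other 14, and their part in its difference of −0.70 was not tested. On the brighter probe the difference at 50 mg/kg-bw/day without the 5 arrays was −0.21 (adjusted p = 0.739).

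In forestomach none of the 9 genes was called at 12.5, 25 or 50 mg/kg-bw/day, and neither was any probe (0%, 0% and 0%). At an unadjusted p under 0.05 the members numbered 1, 1 and 2, where 4.12%, 3.6% and 3.89% of probes passed, and no slope over dose was called for a member or for any probe (0%). Bbc3 had −2.26, −1.94, −1.90 and −1.68 in vehicle mice 1, 2, 3 and 5, and −1.29, −1.67, −1.14, −1.85 and −1.45 in mice 16 to 20. All 5 exposed mice lay above the vehicle mean, 1 of them within the vehicle range, and the difference was 0.47 (SE 0.18, 95% interval 0.08 to 0.85, adjusted p = 1). Eda2r, the other member past the unadjusted limit at that dose, gave 0.24 on the brighter probe and −0.14 on the second, with 2 of 5 and 0 of 5 arrays above background. Bax had log2 ratios of −1.19 to −0.46 in the vehicle mice and −0.37, −0.60, −0.88, −0.81 and −1.01 at 50 mg/kg-bw/day, which overlap (difference 0.21, 95% interval −0.14 to 0.56). Phlda3 differed by −0.02 (95% interval −0.47 to 0.44) and Aen by 0.01 (95% interval −0.28 to 0.30).

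A score of 6 spermatid genes, which a stomach should lack, followed the dose on the forestomach arrays. Its medians were −0.05, 0.39, 1.07 and 1.99 from vehicle to the highest dose, and the 0.55 to 3.03 at 50 mg/kg-bw/day did not overlap with the −0.13 to 0.42 in vehicle mice. Of the 6 genes all were higher at that dose, 5 at an unadjusted p under 0.05, and 0 were called. With this score as a covariate the Bbc3 difference was 0.36 (SE 0.25, adjusted p = 1) in place of 0.47, that of Eda2r 0.17 in place of 0.24, and 0 members were called. Score and dose run together here, so that their parts cannot be told apart.

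Pmaip1 divided the forestomach arrays within every dose group. It was well above background, at −1.46 to 0.41, on 10 arrays and not above background, at −2.90 to −2.13, on the other 9. The 10 were mice 2, 3 and 5 of the 4 vehicle mice, mice 6 and 10 of the 5 at 12.5 mg/kg-bw/day, mice 13 and 15 of the 5 at 25 and mice 18, 19 and 20 of the 5 at 50. On exactly these 10 arrays all 10 genes that mark glandular stomach, among them the gastric proton pump subunits Atp4a and Atp4b, were above background, and their mean log2 ratio was 4.93 to 6.89, against 0.57 to 1.90 on the other 9. The glandular stomach adjoins the forestomach, and its part in the result was not tested beyond the fit that follows.

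Other members moved with the same score. Bax lay between −1.19 and −0.69 (median −0.99) on the 10 arrays and between −0.84 and −0.31 (median −0.56) on the 9, and Phlda3 had medians of 0.63 and 0.98. With the glandular score as a covariate, the change per unit of the score was 0.35 for Pmaip1 (adjusted p = 1.51e-06), −0.10 for Phlda3 (adjusted p = 0.000184), −0.07 for Bax (adjusted p = 0.00293) and −0.07 for Zmat3 (adjusted p = 0.00239). That of Perp was −0.12 (adjusted p = 0.00700) and that of Aen −0.06 (adjusted p = 0.0110), while Bbc3, Eda2r and Trp53inp1 did not pass. The share of all probes that passed for this score was not counted, so these results may not be particular to the members. In that fit 0 members were called at any dose, and the Bbc3 difference at 50 mg/kg-bw/day was 0.47 as before.

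**Figure D4:**
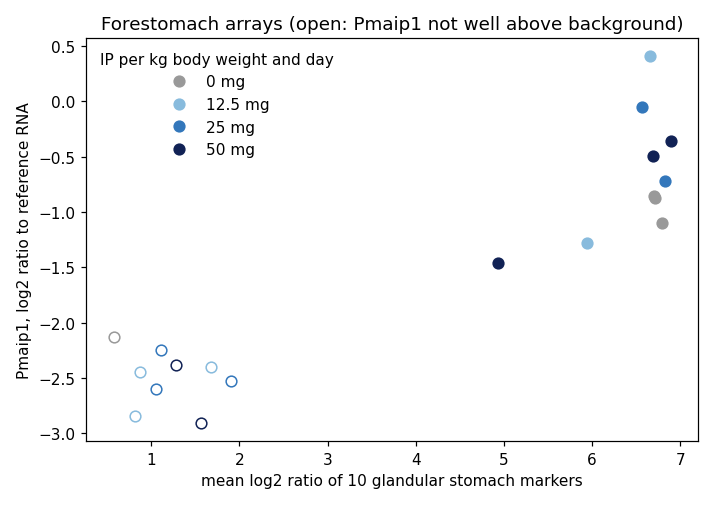
Log2 ratio of Pmaip1 to the reference RNA (vertical axis) against the mean log2 ratio of 10 glandular stomach markers (horizontal axis) on the 19 forestomach arrays, coloured by IP dose, with open circles where Pmaip1 was not well above background. The 10 arrays with Pmaip1 above background have scores of 4.93 to 6.89 and come from every dose group, and the other 9 lie at 0.57 to 1.90.

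The difference between tissues in the response to 50 mg/kg-bw/day was tested in a joint fit of the 58 arrays. For Bax the response in lung exceeded that in liver by 1.02 (SE 0.20, 95% interval 0.62 to 1.43, adjusted p = 0.0315), the only member called there, where 0.0162% of probes were called. It was not called under median centring, with Cy5 alone or with the scanner's log ratio. Phlda3 gave 0.63 (SE 0.21, adjusted p = 0.503) and Zmat3 0.60 (adjusted p = 0.635) in that contrast, and neither passed. Between lung and forestomach no member was called (0.0144% of probes), Bax having a difference of 0.58 (SE 0.20, 95% interval 0.18 to 0.99, adjusted p = 1) and Phlda3 of 0.57 (adjusted p = 1). Between forestomach and liver no member was called either (0.00359% of probes), and the largest difference was that of Bbc3, 0.76 (SE 0.24, adjusted p = 0.665). The call for Bax was lost without any 1 of 12 of the 19 lung and liver arrays compared, those of lung mice 2, 3, 4, 5, 16 and 19 and of liver mice 1, 3, 5, 17, 18 and 19, with adjusted p values of 0.0517 to 0.164. Without the 5 liver arrays that stood apart it was 1.19 (adjusted p = 0.00843).

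**Figure D5:**
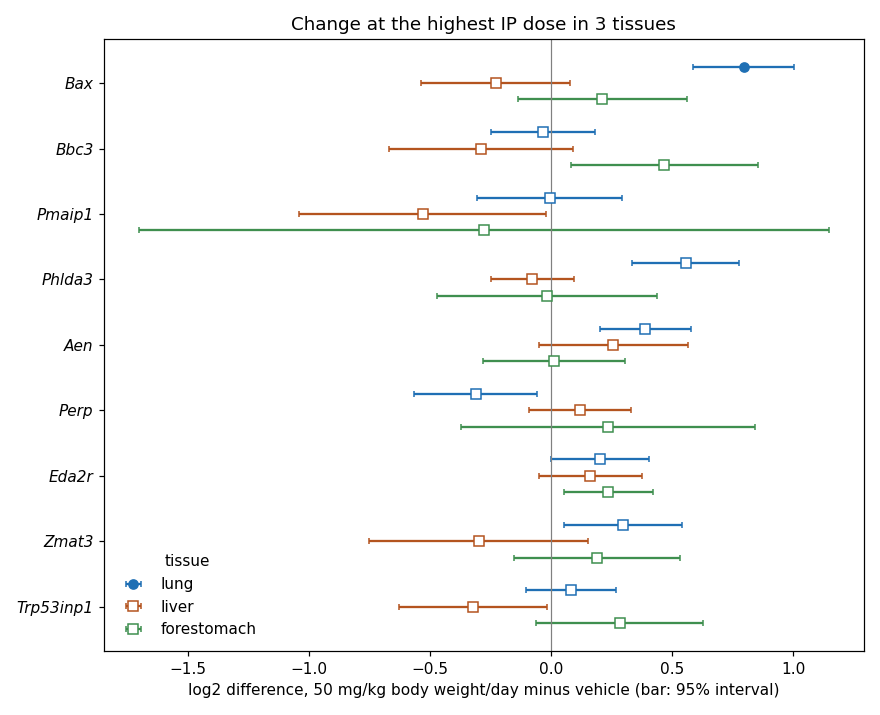
Log2 difference between 50 mg/kg-bw/day and vehicle (horizontal axis) for each of the 9 genes (vertical axis) in lung, liver and forestomach, with 95% intervals from limma as bars. The filled symbol marks the 1 called difference, Bax in lung at 0.79, and open squares mark differences that were not called.

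Other p53 targets were counted in the same way in lung, where 0.079% of all probes were called at 50 mg/kg-bw/day and the median over all probes was 0.00. Of 20 other p53 targets that act in arrest, repair and feedback, 15 were higher and 5 lower at 50 mg/kg-bw/day, with a median of 0.10, and 1 was called: Plk2, a polo-like kinase, at 0.75 (SE 0.13, adjusted p = 0.0134). Gdf15, a stress-induced cytokine, gave 0.85 (adjusted p = 0.0785), Cdkn1a, the inhibitor of cyclin-dependent kinases known as p21, 0.27 (adjusted p = 0.795) and Mdm2, the ubiquitin ligase that degrades p53, 0.02 (adjusted p = 0.974). Among p53 and 8 of its regulators, 3 were higher and 6 lower, and 0 were called.

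Of the other genes of apoptosis none was called. Of 6 anti-apoptotic BCL2 family genes 5 were higher (median 0.02), of 10 other pro-apoptotic family genes 6 (median 0.02), of 12 genes of the apoptosome and the executioner caspases 8 (median 0.07), of 9 death receptor genes 5 (median 0.07) and of 4 genes of ectodysplasin signalling 4 (median 0.08), with 0 called in each. Fadd, the adaptor of death receptors, came nearest at 0.29 (adjusted p = 0.0821). By contrast, the aryl hydrocarbon receptor targets, which polycyclic aromatic hydrocarbons are known to induce, were all 6 higher in lung with a median of 1.48. Of the 6, 2 were called, where 0.079% of all probes were: Cyp1b1 at 3.64 (adjusted p = 0.00145) and Ahrr at 2.50 (adjusted p = 0.000359). In liver and forestomach 0 genes of these lists were called at 50 mg/kg-bw/day, and the medians of the 20 arrest and repair targets were −0.09 and 0.01.

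The genes most like each member in lung, by Pearson's r over the 20 arrays among 19998 other genes, were Mapk12 (0.88), Eif4g1 (0.86) and Mrpl17 (0.86) for Bax. For Phlda3 they included Kat14 (0.88) and Hip1 (0.87), and they were, for Aen, Socs1 (0.87), Fzd6 (0.82) and Rnf14 (0.81), and for Zmat3 Sat1 (0.83), Fam207a (0.83) and Btd (0.82). The arrays differ in dose, slide and share of probes above background, which all genes share.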

How the data were processed

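Cy5 and Cy3 arrays were read for 58 samples from 20 mice. The deposited scanner files hold the median Cy5 and Cy3 intensity of each spot and a log10 ratio of the channels. A table of log2 values that the authors had LOWESS-normalised was used as an alternative for lung and forestomach only, because its liver values did not match the arrays under the names given. Whether a signal was well above background is the scanner's call. Median intensities without background subtraction were loess-normalised within each array in limma 3.58.1 (R 4.3.3, statmod 1.5.0), with control spots left out and spots of a probe averaged without outlier spots. Probes were named through RefSeq accessions and the brightest probe of each gene, by mean over all arrays, stands for it.

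Each tissue was fitted by itself in limma with the 4 dose groups, and a joint fit of all arrays gave the differences between tissues. p-values were adjusted by Benjamini-Hochberg over 55681 probes. A change was called at an adjusted p of at most 0.05 with a fold change of at least 1.5, and slopes and differences between tissues by the adjusted p alone. Exact permutation tests were two-sided, and 0.00794 was the smallest p they allowed. The number of arrays limits the precision. The script for the fits was tested on simulated data.

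The named genes are the 9 members, those genes of the other lists that passed the thresholds, had an unadjusted p under 0.05 or are their best known, and, for Bax, Phlda3, Aen and Zmat3, the 3 genes most like it in lung, of which 1 is not reported here. The members and lists were chosen with earlier results of these data known. Lung, liver and forestomach arrays that share a mouse number in the labels were taken to come from the same mouse.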

Additional observations from a re-analysis of the deposited data

Results flagged for a closer look

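In lung, vehicle mouse 1 had a Bax log2 ratio of −0.66 against −1.15 to −1.04 in the other 4 vehicle mice, and vehicle mouse 5 had a Pmaip1 log2 ratio of −0.37 against 0.26 to 0.44. In liver, Pmaip1 was −3.15 in mouse 9 at 12.5 mg/kg-bw/day (the other 4 from −2.44 to −2.18) and −3.02 in mouse 15 at 25 mg/kg-bw/day (the other 4 from −2.37 to −2.19), and Aen was −0.50 in mouse 16 at 50 mg/kg-bw/day against −0.95 to −0.83. In forestomach, vehicle mouse 1 had 1.41 for Phlda3 against 0.70 to 0.76 and −0.20 for Eda2r against −0.13 to −0.12, none of these Eda2r values being above background, and mouse 6 at 12.5 mg/kg-bw/day had 4.71 for Perp against 5.92 to 6.20. Forestomach vehicle mouse 1 had a glandular stomach score of 0.57, against 6.70 to 6.79 in the other 3 vehicle mice. In each case the gap to the nearest mouse was large relative to the range of its own group, which for Eda2r spans less than 0.1. Such a gap was found in 8 of 108 groups, or 7.41%, where chance gives about 1 in 20. The response of Bax to 50 mg/kg-bw/day differed between lung and liver, by 1.02 on the log2 scale, in a test of that difference.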

How the results depend on the processing

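The call of Bax in lung at 25 mg/kg-bw/day was the least stable: 0 members were called there with median-centred arrays, with Cy5 alone, with the scanner's log ratio, with the authors' values, with only vehicle and 1 dose group in the fit, with limma's trend and robust options, with the leukocyte or the muscle score as a covariate, and without slide 3. At 50 mg/kg-bw/day 0 members were called with median-centred arrays (Bax 1.01, adjusted p = 0.394) and with the scanner's log ratio (Bax 0.66, adjusted p = 0.0742), and 2 with the muscle score or without a fold limit, Phlda3 being added. For the slope in lung, 0 were called with median-centred arrays and the scanner's log ratio, 1 with Cy5 alone, the leukocyte score or the muscle score, and 4 with the slide as a block. That block also raised the called slopes over all 55681 probes, from 78 to 715. The Bax difference between lung and liver gave 0 calls with median-centred arrays, Cy5 alone (1.04, adjusted p = 0.214) and the scanner's log ratio (0.87, adjusted p = 0.412). With the looser limits of a 1.2-fold change and an unadjusted p below 0.05, lung had 1, 3 and 5 members from the lowest to the highest dose, liver 2 at 50 mg/kg-bw/day, and forestomach 1, 1 and 1. Of all 55681 probes, 591, 1297 and 1980 passed these limits in lung. In liver 2868 passed at 50 mg/kg-bw/day, and in forestomach 1192, 900 and 1018 from the lowest to the highest dose. In these cases the cause was not tested.

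Median centring also turned signs. In liver at 50 mg/kg-bw/day Pmaip1 was 0.20, Phlda3 0.49 and Trp53inp1 0.27, and the liver slopes per mg/kg-bw/day were 0.00159 for Bbc3, 0.00855 for Phlda3 and 0.00863 for Zmat3. Vehicle Bax was 1.03 for lung minus liver and 0.53 for lung minus forestomach, and 8 members in place of 3 were called between vehicle lung and liver, where 15765 of 18150 called probes were higher in lung, against 8748 of 14955 with loess. The mean over both probes gave −0.29 for Trp53inp1 in vehicle lung minus liver.

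Leaving out 1 mouse at a time gave 0 to 1 members called in lung at 25 mg/kg-bw/day, 1 to 2 at 50 mg/kg-bw/day, 1 to 2 for the slope and 0 to 1 for the lung minus liver difference. Between vehicle tissues it gave 3 to 3 (lung and liver), 4 to 6 (lung and forestomach, fewest without forestomach mouse 1, where Pmaip1 was 1.15, adjusted p = 0.0669) and 5 to 6 (forestomach and liver). All other counts stayed at 0. The mouse as a random replicate block, since the mouse numbers in the labels repeat across tissues, had a correlation of 0.0458 and changed no call. Bax in lung minus liver was then 1.02 (adjusted p = 0.0170). Background correction by normexp used medians, since the files hold no mean signals, and Aquantile leaves log ratios as they are. The marker scores, slide 3 and the 5 liver arrays were alternatives chosen after seeing the data.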
